A study of Mus musculus with 3 samples.

Results

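The immunoproteasome and class I peptide loading genes described here are Psmb8, Psmb9, Psmb10, Psme1, Psme2, Tap1, Tap2, Tapbp, Nlrc5 and Erap1, 10 genes of the 53342 in the count table. They were chosen by name for their role, by a rule that uses no counts but with earlier results of these data known, and all 10 were found and passed the filter on low counts. RNA was sequenced from the lungs of 3 male C57Bl/6 mice, called mice 4, 5 and 6 after the last digit of their labels, whose age is not given in the sources used here. In this study of sarcoidosis each mouse was given M. abscessus microparticles into the trachea, matched to 1000000 bacteria in 50 µL. All 3 then received MIA-602, which blocks signalling by growth hormone-releasing hormone, at 5 µg under the skin every day for 3 weeks. The mice form 1 group. No lung lacking the challenge or the drug is compared, so the values show levels and differences between mice, and no effect of either. The libraries held between 31579465 and 43845715 counts, and the counting error of a member in 1 mouse lay between 0.458% and 1.84% of its value, without error from preparation.

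The proteasome cuts cellular proteins into peptides. In cells exposed to interferon-gamma, and constantly in many leukocytes, its catalytic subunits Psmb5, Psmb6 and Psmb7 are replaced in new particles by Psmb8, Psmb9 and Psmb10, which gives the immunoproteasome, and the PA28 cap of Psme1 and Psme2 can bind the particle. The peptides pass into the endoplasmic reticulum through the Tap1-Tap2 transporter, Erap1 trims them, and tapasin, made by Tapbp, holds class I molecules at the transporter while they load. Nlrc5 is a transactivator of class I and of several of these partner genes.

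In the genome, 4 of the members lay side by side in the class II region of the major histocompatibility complex, in the order Psmb9, Tap1, Psmb8 and Tap2, within 34335 bases of chromosome 17 (34181987 to 34216321, GENCODE M21 on mm10). Tapbp lay on the same chromosome. Psmb9 and Tap1 are read away from each other, and their annotated exons overlapped by 212 bases on opposite strands. Psme1 and Psme2 shared a stretch of 12991 bases on chromosome 14 and are read toward each other. RefSeq promoter windows (250 bases before to 50 after the start site, GRCm38.p6) were found for 8 of the 10 members, with 2 windows for Psme2 and none for Tap2 or Nlrc5. They are shown for 4 members to let the motifs of interferon signalling and the shared Tap1 and Psmb9 start region be read beside the levels.

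Tap1, chr17:34187306-34187605, plus strand: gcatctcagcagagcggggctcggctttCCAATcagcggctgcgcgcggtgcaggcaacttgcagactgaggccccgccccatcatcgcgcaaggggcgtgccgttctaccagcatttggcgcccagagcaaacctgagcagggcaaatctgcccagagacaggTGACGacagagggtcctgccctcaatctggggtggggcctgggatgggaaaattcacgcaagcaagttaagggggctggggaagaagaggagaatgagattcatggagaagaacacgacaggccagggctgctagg
Psmb8, chr17:34197945-34198244, plus strand: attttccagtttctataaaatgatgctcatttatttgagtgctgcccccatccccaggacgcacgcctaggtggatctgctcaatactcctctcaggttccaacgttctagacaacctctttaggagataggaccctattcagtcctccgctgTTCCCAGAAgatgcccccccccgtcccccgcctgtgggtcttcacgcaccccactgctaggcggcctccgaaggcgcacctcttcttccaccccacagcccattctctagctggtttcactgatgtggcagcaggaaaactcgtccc
Psme1, chr14:55578244-55578543, plus strand: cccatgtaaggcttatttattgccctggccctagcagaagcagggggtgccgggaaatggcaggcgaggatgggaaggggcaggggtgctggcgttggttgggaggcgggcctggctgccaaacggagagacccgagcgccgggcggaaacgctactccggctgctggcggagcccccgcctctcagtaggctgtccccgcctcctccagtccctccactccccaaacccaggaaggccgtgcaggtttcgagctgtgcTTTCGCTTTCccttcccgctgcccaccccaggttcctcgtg
Erap1, chr13:74639603-74639902, plus strand: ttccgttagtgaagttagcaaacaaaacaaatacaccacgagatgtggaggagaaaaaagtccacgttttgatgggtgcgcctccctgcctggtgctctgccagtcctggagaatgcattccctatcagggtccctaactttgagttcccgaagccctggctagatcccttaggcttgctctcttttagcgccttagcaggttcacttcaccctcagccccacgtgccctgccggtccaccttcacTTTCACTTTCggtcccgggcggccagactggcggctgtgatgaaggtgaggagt

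Capitals mark matches, on either strand, to 6 motifs. These were the interferon-gamma activated site TTCNNNGAA, the interferon regulatory factor site (GAAA, any 2 bases, GAAA), the NF-kB forms (GGGA, any 3 bases, CCC, and GGGA, any 2 bases, TTCC), the CCAAT box, and TGACG, the core of a cyclic AMP response element. No 2 matches overlapped in the windows printed. The Tap1 window and that of Psmb9 shared 275 bases, their start sites being 226 bases apart, so the CCAAT match (34187334 to 34187338) and the TGACG match (34187470 to 34187474) were the same bases for both genes. Psmb8 had the 1 activated-site match among the 8 members with a window, 97 bases before its RefSeq start. Psme1 and Erap1 each had a regulatory factor match, beginning 9 bases after and 4 bases before the start. Neither NF-kB form matched in any member's window. Of 32851 RefSeq windows of this length, 8.30% held the activated site, 3.44% the regulatory factor site, 5.55% and 1.47% the NF-kB forms, 37.4% CCAAT and 20.8% TGACG. A match is a run of letters and does not show binding. The RefSeq start of Psmb8 lay 474 bases inside the GENCODE gene, that of Psme1 371 and that of Erap1 285, so other start sites lie outside these windows. Among windows not printed, the start of Psmb9 lay 434 bases inside and that of Tapbp 3579. The 226 bases between Psmb9 and Tap1 thus hold for their RefSeq starts only.

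The unit of level is CPM, TMM-adjusted counts for a library total of 1000000, for mice 4, 5 and 6 in that order, and as mean ± SD (n = 3). Levels of different genes are compared per kilobase. Of the catalytic subunits, Psmb8, which carries the chymotrypsin-like site of the immunoproteasome (ENSMUSG00000024338, chromosome 17, 34197721 to 34201454, plus strand), had 418, 312 and 434 CPM. Psmb9, which takes the place of Psmb6 (ENSMUSG00000096727, chromosome 17, 34181987 to 34187764, minus strand), had 292, 218 and 299.6 CPM. Psmb10, which carries the trypsin-like site (ENSMUSG00000031897, chromosome 8, 105935735 to 105938444, minus strand), had 249.9, 197 and 269 CPM. In each of these genes mouse 5 was the lowest and mice 4 and 6 lay close together. The means were 388 ± 66.5, 269.8 ± 44.7 and 239 ± 37.5 CPM.

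Of the PA28 subunits, Psme1, the alpha subunit (ENSMUSG00000022216, chromosome 14, 55578123 to 55581529, plus strand), had 439, 340.1 and 439 CPM, with a mean of 406 ± 57.1. Psme2, the beta subunit (ENSMUSG00000079197, chromosome 14, 55587441 to 55591113, minus strand), had 337, 274 and 373 CPM, with a mean of 328 ± 50.0. Mouse 5 was again the lowest for both. The count of Psme2 is uncertain, since 59.3% of the 50-base words of its transcript also occur in Psme2b, a near-copy with 559, 335 and 441 counts.

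Of the transport and loading genes, Tapbp led in CPM. Tap1, a chain of the transporter (ENSMUSG00000037321, chromosome 17, 34187553 to 34197225, plus strand), had 551, 385 and 582 CPM and a mean of 506 ± 106. Tap2, its partner chain (ENSMUSG00000024339, chromosome 17, 34203527 to 34216321, plus strand), had 404, 295 and 408 CPM and a mean of 369 ± 64.1. Tapbp (ENSMUSG00000024308, chromosome 17, 33915899 to 33929292, plus strand) had 1105, 874 and 1098 CPM and a mean of 1026 ± 132. All 3 were lowest in mouse 5, and in none did mice 4 and 6 differ by more than 1.06-fold. Reads of Psmb9 and Tap1 in their overlap cannot be told apart without strand, nor those of Tapbp and the antisense gene Gm19412, which shared 904 exon bases and had 132, 133 and 105 counts.

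The trimming enzyme and the regulator were the least abundant. Erap1 (ENSMUSG00000021583, chromosome 13, 74639568 to 74693201, plus strand) had 103, 91.9 and 92.8 CPM, or 96.0 ± 6.32 on average, with mouse 4 highest and mice 5 and 6 nearly equal. It shares 834 exon bases with Cast on the opposite strand, which had 4770, 3964 and 2862 counts, so part of its count may belong to Cast. Nlrc5 (ENSMUSG00000074151, chromosome 8, 94434356 to 94527272, plus strand) had 254, 167 and 239.99 CPM, or 220.3 ± 47.1, with mouse 4 highest.

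**Figure D1:**
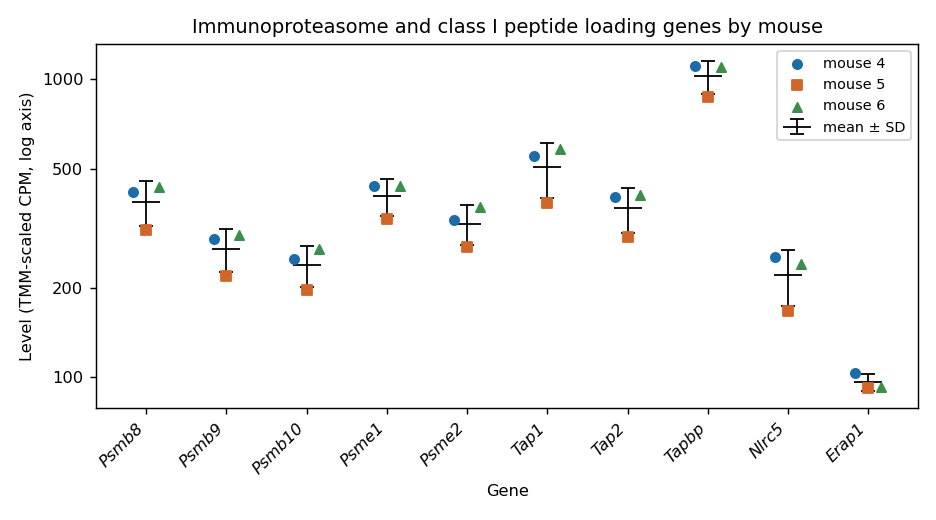
Level of each of the 10 genes in TMM-scaled CPM (log axis), with 1 point per mouse and a bar for the mean ± SD over 3 mice. Mouse 5 is the lowest point of every gene, and for Erap1 it lies beside mouse 6 (91.9 and 92.8 CPM).

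Per kilobase of exon the members ranked among the more abundant genes of the lung. The order was Tapbp (283 ± 36.3 CPM per kilobase of exon), Psme2 (186 ± 28.3), Psme1 (184 ± 25.8), Psmb10 (139.9 ± 22.0), Psmb8 (115 ± 19.7), Tap2 (97.6 ± 17.0), Tap1 (92.4 ± 19.3), Psmb9 (73.7 ± 12.2), Nlrc5 (25.9 ± 5.54) and Erap1 (13.2 ± 0.868). The neighbours Psme2 and Psme1 did not differ beyond their spread (a within-mouse log2 difference of 0.01 ± 0.07, higher in 2 of 3 mice), while each other neighbour was lower in 3 of 3 mice by more than the SD of the difference. The median member had 106 ± 18.3 CPM per kilobase, against 4.43 ± 0.0263 for the median of all 17636 genes that passed the filter. Erap1 lay at percentile 77.0 of those genes, Nlrc5 at 88.2, and the other 8 between 96.4 and 99.2. The order rests on the length used. With the length of the transcript that has the longest coding sequence, in place of all annotated exons joined, Psme1 came first (365 ± 51.3), followed by Tapbp (354 ± 45.4) and Psme2 (341 ± 51.9), and Psmb8 (238 ± 40.9), Psmb9 (199.6 ± 33.1) and Psmb10 (182 ± 28.6) lay above Tap1 (171 ± 35.8) and Tap2 (107 ± 18.6). Nlrc5 (29.1 ± 6.21) and Erap1 (17.0 ± 1.12) came last with both lengths.

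Of the catalytic pairs, Psmb8 exceeded Psmb5 and Psmb10 exceeded Psmb7 in all 3 mice, while Psmb9 was close to or below Psmb6. Within a mouse the scaling of the library cancels, so a ratio per kilobase compares the 2 genes directly. The ratio of Psmb8 to Psmb5, the constitutive chymotrypsin-like subunit, was 1.96, 1.54 and 1.92 per kilobase of exon in mice 4, 5 and 6, or 0.84 ± 0.19 on the log2 scale (SD, n = 3). It was 4.07, 3.19 and 3.98 with transcript length. Psmb5 itself had 56.7, 53.9 and 60.2 CPM, and 57.1% of its 50-base words recur in other genes, most of them in Gm3375. Counting only words found in no other gene, on either strand, as length, the ratio was 1.81, 1.42 and 1.77. The counts were not cut to match, so this length holds only if reads in shared words were left uncounted, which is not known. Mouse 5 had the lowest ratio by each measure.

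The ratio of Psmb10 to Psmb7, the constitutive trypsin-like subunit, was 7.53, 6.32 and 8.59 per kilobase of exon (2.89 ± 0.22 on the log2 scale), 3.32, 2.79 and 3.79 with transcript length and 2.38, 1.99 and 2.71 with words of its own. Psmb7 had 66.6, 62.5 and 62.9 CPM, and its count is uncertain, since 28.1% of its 50-base words also occur in Nek6 on the opposite strand, which had 3048, 2050 and 2133 counts. The ratio of Psmb9 to Psmb6, the constitutive caspase-like subunit, was 0.772, 0.703 and 0.862 (−0.37 ± 0.15), lower in 3 of 3 mice, 0.891, 0.811 and 0.994 with transcript length and 0.966, 0.879 and 1.08 with words of its own, where the mice fell on both sides of 1. Psmb6 had 193, 159 and 178 CPM, the highest of the constitutive 3, and before any division by length Psmb9 had 1.51, 1.37 and 1.68 times its level. Psmb8, Psmb9 and Psmb10 together made up 65.3%, 62.1% and 67.1% of the summed level per kilobase of exon of the 6 exchangeable subunits (64.8% ± 2.54), and 64.7%, 61.6% and 66.8% with transcript length. In all 3 mice the pooled share was thus above that of the constitutive subunits, with mouse 5 lowest. This does not hold for Psmb9 taken alone per kilobase of exon.

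The interferon-induced PA28 genes were well above their nuclear relative Psme3, the gamma subunit. The ratio of Psme1 to Psme3 was 6.18, 5.52 and 6.80 per kilobase of exon and that of Psme2 to Psme3 5.93, 5.57 and 7.23, with 3 of 3 mice higher under every length tried. With transcript length the ratio to Psme3 was 11.1, 9.91 and 12.2 for Psme1, and for Psme2 it was 9.820, 9.222 and 11.98. With words found in no other gene as length it was 13.3, 11.8 and 14.6 for Psme1, and for Psme2 it was 24.9, 23.4 and 30.4. The size of these ratios thus depends on the length. With the last length the counts were again not cut to match, so those ratios may be too high. Psme3 had 94.9, 82.2 and 86.1 CPM. The alpha and beta subunits, which join in 1 ring, had a ratio of 1.04, 0.992 and 0.940, within the spread between mice of equality (−0.01 ± 0.07). This ratio was 1.13, 1.07 and 1.02 with transcript length and 0.532, 0.506 and 0.480 with words of its own, so which subunit was the more abundant cannot be told from these counts.

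Tap1 and Tap2, whose proteins pair 1 to 1, had a ratio of 0.942, 0.902 and 0.985 per kilobase of exon (−0.09 ± 0.06), which turned to 1.59, 1.52 and 1.66 with transcript length, since the joined exons of Tap1 are 5476 bases long and its transcript 2953. Tapbp exceeded Tapbpl, the gene of the tapasin relative TAPBPR, by 6.72, 6.65 and 7.52 times per kilobase of exon, 8.42, 8.33 and 9.42 with transcript length and 10.23, 10.12 and 11.44 with words of its own, and Tapbpl had 107, 85.1 and 94.6 CPM. Erap1 exceeded Lnpep, an aminopeptidase of endosomes, by 15.3, 14.3 and 15.3 times per kilobase of exon, 16.8, 15.7 and 16.8 with transcript length, 19.7, 18.4 and 19.7 with words of its own and 7.88, 7.36 and 7.89 with no length scaling, with Lnpep at 13.1, 12.5 and 11.8 CPM. Nlrc5 exceeded Ciita, the transactivator of class II genes, by 2.46, 2.44 and 2.81 times per kilobase of exon, but by only 1.23, 1.22 and 1.40 times with transcript length, and Ciita had 116, 76.6 and 95.9 CPM. With 3 mice the exact two-sided sign-flip permutation test cannot go below p = 0.25, and over the 10 pairs it gave p = 0.25 for 9 and p = 0.75 for Psme1 and Psme2 (0.278 and 0.75 after Benjamini-Hochberg adjustment), so no pair could pass the threshold.

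**Figure D2:**
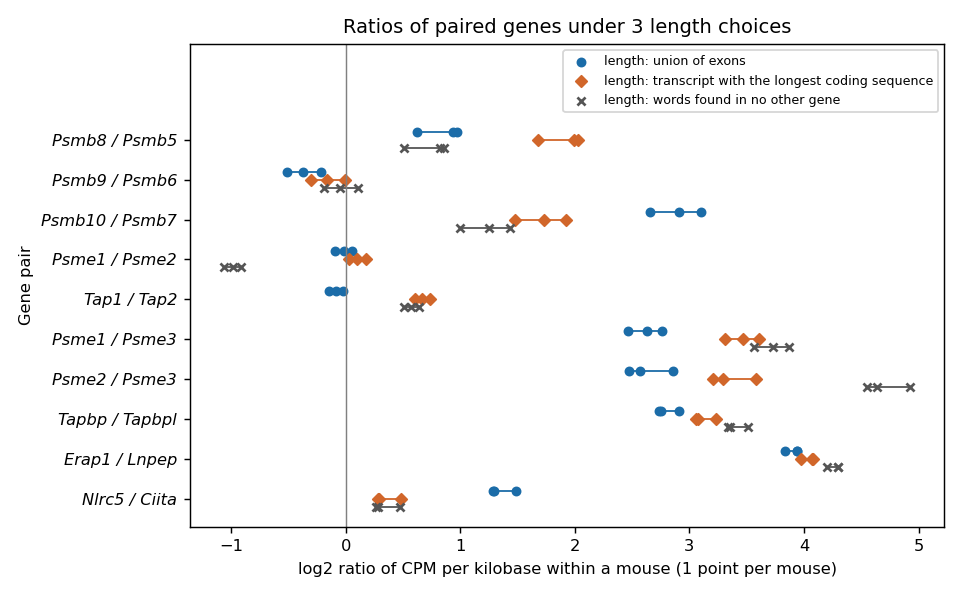
Log2 ratio of CPM per kilobase for the 10 gene pairs, 1 point per mouse, with a line from the lowest to the highest mouse and a colour and symbol for each of 3 length choices. Psmb9 over Psmb6, Psme1 over Psme2 and Tap1 over Tap2 cross or change side of 0 with the length, while the other 7 pairs lie above 0 with each.

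All 10 members had their lowest level in mouse 5, as 36.8% of all genes tested did. The highest level was in mouse 6 for 6 members (Psmb8, Psmb9, Psmb10, Psme2, Tap1 and Tap2), in mouse 4 for 4 (Psme1, Tapbp, Nlrc5 and Erap1) and in mouse 5 for 0. Over all genes these shares were 30.2%, 33.4% and 36.4% for mice 6, 4 and 5. With library totals alone Erap1 was lowest in mouse 6 (93.2031 CPM in mouse 5 and 93.1935 in mouse 6), and Psme1 and Tapbp were highest in mouse 6. The differences were small. From the lowest to the highest mouse the folds ran from 1.12 for Erap1 through 1.26 for Tapbp and 1.39 for Psmb8 to 1.51 for Tap1 and 1.53 for Nlrc5. The median was 1.37-fold, against 1.24-fold over all genes.

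A 1.5-fold difference between mice 4 and 5 was passed by 1 member, Nlrc5 (1.53-fold), where 15.8% of all genes passed it in either direction. Between mice 5 and 6 it was passed by Tap1 alone (9.96% of all genes), and between mice 4 and 6 by 0 members (10.8%). With library totals in place of TMM scaling neither Nlrc5 nor Tap1 passed. Each mouse is 1 library, so these folds have no replicate check. When each gene's spread over the mice was set against genes of like abundance (edgeR quasi-likelihood fit, Benjamini-Hochberg over 17636 genes), 0 members passed, as did 0% of all genes, and DESeq2 also called 0. At an unadjusted p under 0.05 the members again counted 0, where 4.92% of all genes passed. Nlrc5 had the largest excess over the trend (2.45 on the log2 scale, edgeR adjusted p = 0.955, 0.265 to 1 over the settings tried) and Tap1 the next (2.05, adjusted p = 0.968, 0.439 to 1). Erap1 lay below the trend (−0.78, edgeR adjusted p = 0.995).

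The proportions of the members to one another were compared across the mice as a description, with no comparison to other gene pairs. The ratio of Psmb8 to Psmb9 had an SD of 0.01 on the log2 scale over the mice, where counting error alone would give 0.02. That of Psmb9 to Tap2 had 0.02 beside a counting error of 0.02. These were the 2 of 45 member pairs within counting error. Psmb8, Psmb9 and Tap2 are all of the cluster on chromosome 17, but their neighbour Tap1 varied more against Psmb8 (0.06) and Psmb9 (0.07). Across chromosomes, Psme1 to Tapbp had an SD of 0.02 and Psmb10 to Psme2 0.03. The ratio of Tap1 to Erap1 varied most, with 0.29.

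**Figure D3:**
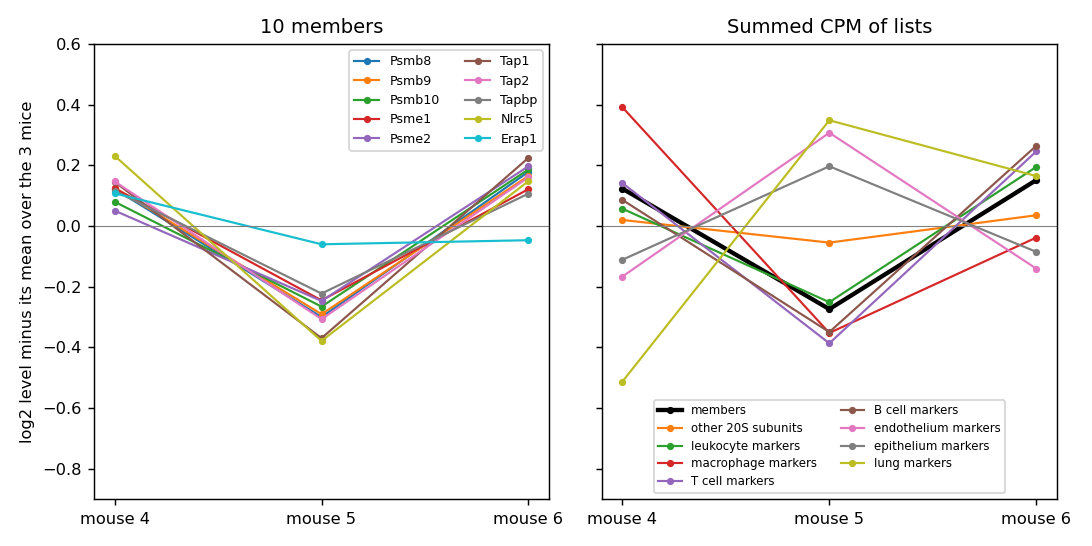
Log2 level minus its own mean over the 3 mice, for the 10 members (left) and for the summed CPM of the members, 1 proteasome list and 7 marker lists (right). Lines join the values of 1 gene or list and imply no order of the mice. Every member is lowest in mouse 5, Erap1 by little, as are the sums of leukocyte, macrophage, T cell and B cell markers. Endothelium, epithelium and lung markers peak there. Among lists not drawn, the fibroblast sum is also lowest in mouse 5, and the NK and cytotoxic sum is lowest in mouse 4.

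Markers of most immune cells were also lowest in mouse 5, as were 36.8% of all genes tested. The summed leukocyte markers (Ptprc, Coro1a, Laptm5 and Cd53) stood at 1589.8, 1284 and 1749 CPM in mice 4, 5 and 6, and each of the 4 genes was lowest in mouse 5. T cell markers summed to 210.1, 146 and 226, B cell markers to 266, 197 and 301 and dendritic cell markers to 401, 285 and 384 CPM, again with 4 of 4 genes lowest in mouse 5 for each. Macrophage markers also had 4 of 4 genes lowest there, but peaked in mouse 4, at 1575, 940.2 and 1169 CPM. NK and cytotoxic markers (79.2, 82.5 and 101 CPM) had 1 of 4. The sums for endothelium (1018, 1414 and 1036 CPM) and epithelium (1171, 1449 and 1192) were highest in mouse 5. So was that of the lung markers Sftpc, Sftpb, Scgb1a1 and Ager (26362, 47902 and 42167), which were abundant in every mouse as the tissue label implies. Fibroblast markers had 1418, 1244 and 1353 CPM. Their sum was thus also lowest in mouse 5, with 2 of 4 genes lowest there and 2 in mouse 6. Skeletal muscle markers (4185, 1524 and 1311) and squamous epithelium markers (341, 126 and 109.6) were high in mouse 4, with 8 of 8 genes lowest in mouse 6, and their part in the members' levels was not tested. No marker gene was at 0 in any mouse. In a whole lung, fewer cells of a type and less RNA per cell cannot be told apart.

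Divided by the summed leukocyte markers of the same mouse, the members were more even. Psmb8 came to 0.263, 0.243 and 0.248 in mice 4, 5 and 6, Psmb10 to 0.157, 0.153 and 0.154 and Psme2 to 0.212, 0.213 and 0.213. The fold from the lowest to the highest mouse then ran from 1.01 for Psme2 to 1.35 for Erap1, with a median of 1.10 in place of 1.37. Nlrc5 kept a 1.23-fold range, with 0.160, 0.130 and 0.137, and 6 of the 10 members were still lowest in mouse 5. Erap1 alone had a wider range after the division than before. Divided by the macrophage markers, the median range was 1.39-fold, no narrower than 1.37, and all 10 members were lowest in mouse 4. Only Nlrc5 (1.27-fold), Tap1 (1.42) and Tap2 (1.36) had a narrower range than in CPM. Divided by the other 20S subunits, the median range was 1.29-fold. The leukocyte comparison was chosen after the values were seen, and its part in the dip of mouse 5 was not tested. It also rests on the make-up of the sum. Laptm5 (704, 570 and 836 CPM) and Coro1a (375, 302 and 463) weighed most in it and were highest in mouse 6. Ptprc (320, 260 and 291) and Cd53 (191, 153 and 159) were highest in mouse 4. Division by each marker alone was not done, and could give wider ranges.

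**Figure D4:**
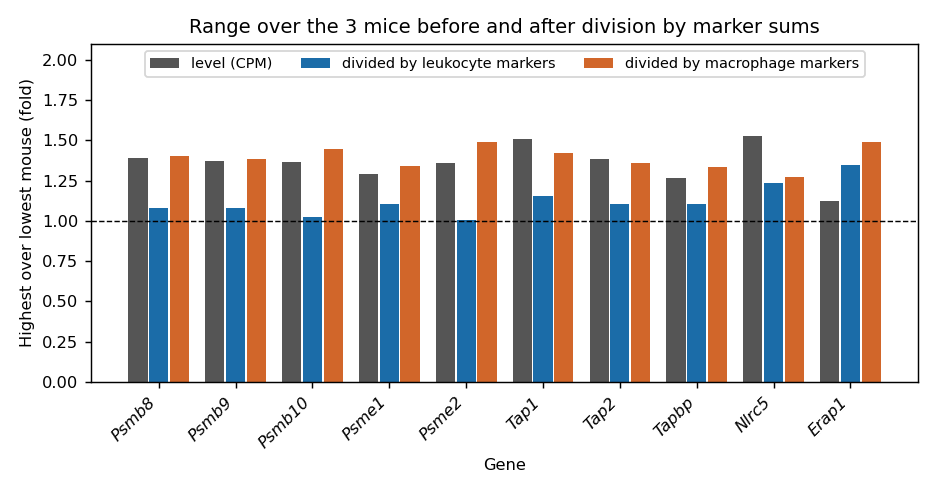
Fold from the lowest to the highest of the 3 mice for each gene, as its CPM, after division by the summed leukocyte markers and after division by the summed macrophage markers. The dashed line marks no difference. With leukocyte markers the fold is smaller than in CPM for every gene except Erap1. Laptm5 and Coro1a weigh most in the leukocyte sum.

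In 3 lists of other proteasome genes the median fold between mice was smaller than the members' 1.37, a difference that was not tested. The 3 constitutive catalytic subunits ranged by a median of 1.12-fold, the 11 other 20S subunits by 1.09-fold and the 18 subunits of the 19S cap, which unfolds substrates, by 1.11-fold. The summed 20S list had 1388, 1318 and 1403 CPM and the 19S list 1764, 1679 and 1821. Mouse 5 was lowest for 3 of 3, 8 of 11 and 12 of 18 of these genes, and for 36.8% of all genes tested. In the 20S list Psmb2 was the most abundant per kilobase of exon (83.6 ± 6.13) and Psma3 the least (32.0 ± 1.25), and in the 19S list Psmc5 (71.3 ± 4.03) and Psmd1 (8.19 ± 0.618). Among the constitutive catalytic subunits Psmb6 led (94.3 ± 9.14) and Psmb7 was lowest (18.7 ± 0.665). The assembly factor Pomp, which is needed to build immunoproteasomes quickly, had 195, 183 and 231 CPM (39.0 ± 4.75 per kilobase of exon) and was highest in mouse 6, against 3.66 ± 0.471 for Psmg3, the lowest of that list. Of the other caps, Psme3 led (29.8 ± 2.21) and the inhibitor Psmf1 was lowest (5.18 ± 0.166). The subunits restricted to thymus or testis were almost absent. Psmb11, the thymoproteasome subunit, had 0, 0 and 1 counts and Psma8, of the testis particle, 53, 21 and 13, a 3.00-fold range in CPM.

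The class I molecule itself was more abundant than any member. B2m, the light chain, had 7192, 4697 and 5686 CPM (6812 ± 1461 per kilobase of exon), and the heavy chains H2-K1 and H2-D1, near-identical in part, had 1711 ± 235 and 1787 ± 296 per kilobase. All 3 were highest in mouse 4 and lowest in mouse 5. Tapbpl was lowest of the loading partners (40.6 ± 4.57), 4 of which had their lowest level in mouse 5, and Canx was the exception, at 359, 402 and 366 CPM. The other peptidases ran from Lap3 (29.4 ± 3.35) to Lnpep (0.881 ± 0.0479), and 1 of 6 was lowest in mouse 5. Of 12 regulators 9 were lowest there. Irf1, a transcription factor that binds regulatory factor sites, led them (109 ± 18.0 per kilobase of exon) and had 442, 359.9 and 503 CPM, and Rfxank, part of the factor that binds class I and II promoters with Nlrc5 or Ciita, was lowest (5.93 ± 0.359). In all, 0 of the 66 companion genes that passed the filter varied beyond the trend by the edgeR test (0 also at an unadjusted p under 0.05). Of these 66, 44 were lowest in mouse 5, where 36.8% of all genes tested were lowest.

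Outside these lists, the 5 genes whose levels over the 3 mice followed the members' mean profile most closely were Ccl9 (126, 96.6 and 128 CPM), Relb (86.2, 65.3 and 86.6), Psen2 (78.6, 60.0 and 80.5), H2-Eb2 (13.30, 10.04 and 13.37) and Bcl11b (18.2, 13.9 and 18.6). Likeness was the root mean square difference of centred log2(CPM + 0.5), which was 0.00339 for Ccl9 and 0.00675 for Bcl11b. No share of genes as near as the members is given, since each member is part of that mean profile. The likeness rests on 3 mice.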

How the data were processed

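Per the file headers and values, the authors deposited raw counts, 1 column per mouse, with no normalization. Build mm10, the aligner STAR 2.5.2a, Trim Galore 0.6.2 and bcl2fastq 2.17 come from the submitters' processing notes. Not given in the sources used here: how reads were counted, on which annotation and with or without strand. GENCODE M21 supplied symbols, positions and lengths for 53237 of 53342 identifiers (99.8%). In edgeR 4.0.16 (R 4.3.3), filterByExpr kept 17636 genes, TMM set the scaling, and an intercept-only quasi-likelihood fit gave each gene's residual dispersion, set against the abundance trend (one-sided F test, prior degrees of freedom 3.88, adjusted threshold 0.05). This test was tried on simulated data. Its p-values compare a gene's spread between these 3 mice with that trend. Ratios were tested by exact sign-flip permutation, which asks if the mean within-mouse log2 ratio differs from 0. Both tests concern these 3 mice only. Named genes were the 10 members, the paired genes, the most and least abundant gene of each of 10 companion lists (67 genes) and the 5 genes most like the members among those with a mean of at least 10 CPM; Canx was named after its values were seen. Sensitivity settings covered scaling, filter, tool (DESeq2 1.42.0), gene length, fold and leaving out each mouse. Python 3.11.15 with pandas 2.3.3 was used for levels. The members, lists, motifs and pairs were chosen with earlier results of these data known.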

Additional observations from a re-analysis of the deposited data

How the results depend on the processing

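No comparison paired between conditions was possible because all mice belong to 1 group. Of the pair ratios, 7 of 10 kept their direction under all 4 length choices. The log2 ratio turned to 0.60 for Psmb9 over Psmb6 with no length scaling. For Psme1 over Psme2 it turned to 0.10 with transcript length, 0.31 with no length scaling and 0.024 without mouse 6 (−0.050 to 0.024 over the mice left out in turn). For Tap1 over Tap2 it turned to 0.67 with transcript length, 0.45 with no length scaling and 0.58 with words found in no other gene, a length added after the data were seen. The median member's level was 190.8 CPM per kilobase with transcript length, against 106 with exons joined, because the transcripts are shorter. The spread test called 629 of 30751 genes with no filter beyond 1 count and 13 of 17749 without mouse 4 (0 to 13 over the mice left out), against 0, and 0 members under each setting, DESeq2 included (690 genes at an unadjusted p under 0.05). The lowest adjusted p of any member in this test was 0.265, for Nlrc5 with no filter. At an unadjusted p under 0.05 there were 2 of 10 members with no filter, beside 2465 of 30751 genes. Without mouse 4 there were 2 members, beside 1008 of 17749 genes. Under the other settings there were 0 members, where 690 to 886 genes passed. Members past the fold numbered 0 between mice 4 and 5 and between mice 5 and 6 with library totals alone, with a fold of 2 and after division by leukocyte markers, which also left 6 members lowest in mouse 5. All genes past a fold of 2 numbered 838, 612 and 385 between mice 4 and 5, 4 and 6, and 5 and 6, and past 1.5-fold with no filter 12055, 10764 and 10773. Under the settings tried, 92 other such values counted as unchanged. A ratio did so if it kept its sign, and a level if it moved by less than its SD over the mice. Their size could still change. Psme1 over Psme2 was −0.98 with words found in no other gene, and 9 members were lowest in mouse 5 with library totals alone.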
